A study of Mus musculus with 2 samples.

Results

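Expression of 10 genes of thymic epithelium was followed in the RNA of whole thymus from wild-type (WT) mice and from mice carrying a miR-146a transgene (Tg). The 10 genes were listed by name, with earlier results of these data known, and no threshold on their values was used. They were Psmb11, Prss16, Ly75, Dll4, Foxn1, Krt8, Krt18, Krt5, Epcam and Aire, of 23294 genes with a symbol in the deposited tables. They were listed as 23 of 30533 RefSeq transcripts, and the level of a gene was that of whichever transcript had the largest mean of WT and Tg. The study sequenced polyadenylated RNA of 1 WT library and 1 Tg library, each made from the pooled thymus of 1 male and 1 female Balb/c mouse of 5 to 6 weeks of age. The Tg mice expressed miR-146a systemically, the WT mice were bred from purchased Balb/c mice, and no other allele or agent is named for either group. The sources used here name neither the promoter that drove the transgene nor the number of founder lines. With 1 library per genotype there was no measure of the spread between animals, so no test between genotypes was possible, and every comparison is one of these libraries. The tissue was frozen and ground whole, so the RNA held stroma and thymocytes together. In such bulk RNA, fewer cells of a type and less RNA per cell cannot be told apart.

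Thymic epithelial cells form the scaffold in which thymocytes develop. In the cortex they present self-peptides to CD4+CD8+ double-positive thymocytes during positive selection, with peptides made by a proteasome and by proteases found in few other cells. In the medulla they express genes of other tissues under the control of Aire, a display that purges self-reactive T cells. The transcription factor Foxn1 is needed for both kinds of epithelium, and Dll4 on their surface engages Notch1 on incoming progenitors and commits them to the T lineage. The thymus is made up mostly of thymocytes, so epithelial transcripts are diluted in its RNA.

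The transgene product cannot be read from these libraries, because mature miRNAs carry no poly(A) tail and oligo(dT) selection does not retain them. Its sequence is shown for the search of the members' transcripts. Both mouse miR-146 species are given as in RefSeq, build GRCm38.p6, 5′ to 3′, with the seed (bases 2 to 8) in capitals. They share this seed, GAGAACU.
mmu-miR-146a-5p: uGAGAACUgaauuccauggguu
mmu-miR-146b-5p: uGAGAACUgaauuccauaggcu

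A seed match was searched as AGTTCTCA (8 bases) or as AGTTCTC or GTTCTCA (7 bases, each contained in the 8-base match) in the transcript strand of the annotated 3′ untranslated region (UTR). Of the 10 genes, 1 held a 7-base match and 0 held the 8-base match. Over 12074 measured genes with an annotated 3′ UTR, 18.6% held a 7- or 8-base match and 4.22% the 8-base match. The members' 3′ UTRs were shorter, with a median of 609 bases against 1017 bases over the measured genes. The single match lay at bases 141 to 147 of the 3′ UTR of Prss16. It is shown with its neighbouring bases, from the minus strand of chr13:22002596-22002625 (GRCm38), with the match in capitals.
Prss16: ttctgcctgcttGTTCTCAatttatcttca

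This match describes letters only. The longest 3′ UTR searched, that of Psmb11 with 3321 bases, held none, and neither did the next longest, those of Ly75 (1657 bases), Dll4 (1329 bases) and Foxn1 (1174 bases). For Ly75 and Aire the longest annotated 3′ UTR of the gene was searched.

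The upstream sequence of Psmb11 is shown because this gene is known to be controlled by Foxn1, whose binding sites hold the core ACGC. The RefSeq table gave a window of 250 bases before to 50 bases after the start for 9 of the 10 genes (all but Prss16). GACGC, which contains that core, or GCGTC on the opposite strand was found in 3 of these 9 windows (33.3%), those of Psmb11, Krt5 and Aire, and in 27.2% of 32851 windows of all genes. The 250 bases before the start of Psmb11 (plus strand, chr14:54625060-54625309, GRCm38.p6) held 2 matches in capitals, which began 239 and 62 bases before the start.
Psmb11: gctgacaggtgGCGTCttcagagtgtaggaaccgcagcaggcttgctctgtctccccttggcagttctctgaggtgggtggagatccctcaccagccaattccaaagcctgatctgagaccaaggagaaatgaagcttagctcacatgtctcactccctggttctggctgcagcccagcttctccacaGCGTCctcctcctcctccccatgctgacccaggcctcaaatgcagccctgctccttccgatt

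The deposited values were labelled RPKM, that is, reads scaled to the length of the transcript and a total for the library, and the read counts behind them could be worked back. Each count was required to be even or to be 1 read, and a pair was taken as 1 fragment. This gave 25750264 fragments for WT and 24180388 for Tg. A 1 kb transcript with 3 fragments has 0.207 RPKM in WT and 0.195 RPKM in Tg, and a value of 1 read was taken to stand for none. A gene was called measured with at least 20 fragments over both libraries, which held for 12930 genes. Ratios are Tg over WT, with exact binomial (Clopper-Pearson) 95% intervals computed from the fragments, and these hold the error of counting alone.

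The thymic epithelial genes were low in both libraries, and none that could be measured differed by over 1.5-fold. Of the 10 genes, 5 were measured (Ly75, Psmb11, Epcam, Prss16 and Krt18), and the other 5 had 18 fragments or fewer in all (Krt8, Krt5, Foxn1, Dll4 and Aire). None of the 5 measured genes was over 1.5-fold higher in Tg, where 8.93% of all measured genes were, and none was over 1.5-fold lower, where 12.5% were. Ratios were above 1 in 4 and below 1 in 1 of them. Their median log2(Tg/WT) was 0.161, beside 0.0244 for all measured genes. Together the 10 genes had 708 fragments in WT and 814 in Tg. Ly75 and Psmb11 alone gave 78.4% of these fragments in WT and 79.1% in Tg.

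**Figure D1:**
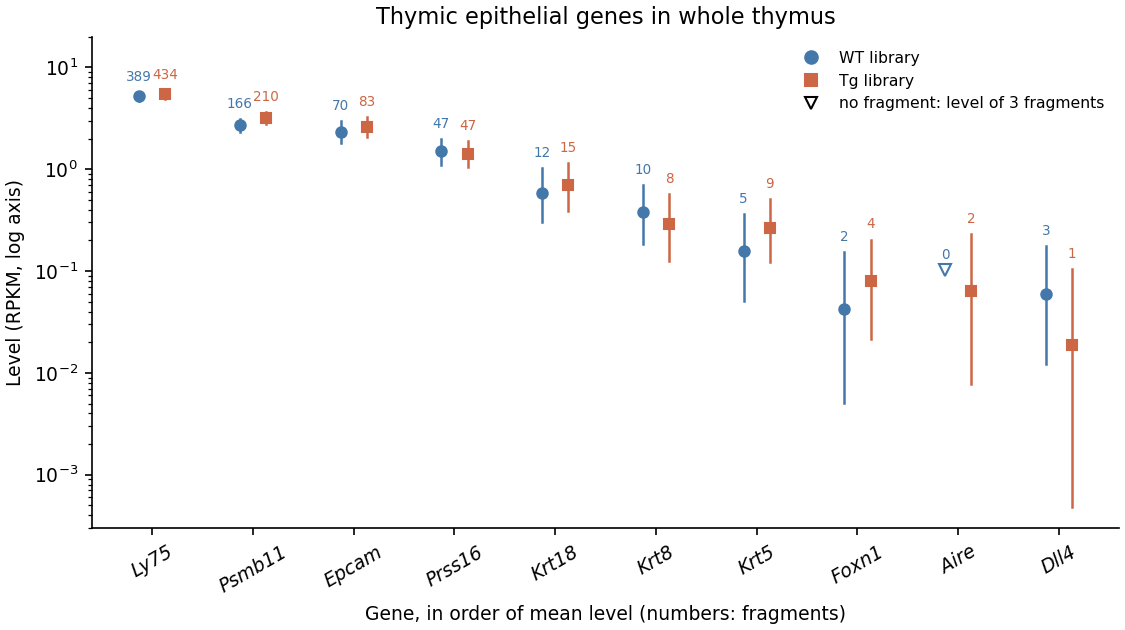
Level of each of the 10 genes in the WT library (circles) and the Tg library (squares), in RPKM on a log axis, with 95% Poisson intervals on fragments as bars and the number of fragments above each point. The open triangle marks the level of 3 fragments for Aire, which had 0 fragments in WT on the transcript used, and the intervals of the libraries overlap for each of the other 9 genes, from Ly75 (5.18 and 5.45 RPKM) down to Dll4 (3 fragments and 1 fragment).

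The libraries were scaled in the deposited values by totals of 29045338 (WT) and 30793392 (Tg). The recovered reads, 51507966 and 48368329, exceeded these totals, and what the totals count is not stated. The levels may therefore stand on another scale than a usual RPKM. The recovered fragments amounted to 88.7% and 78.5% of the totals. Those shares, taken over all transcripts, correspond to a shift of 0.175 in log2(Tg/WT). In place of the deposited totals, scaling by the fragments summed over genes, a different sum, raised log2(Tg/WT) of every gene by 0.196. The share of all measured genes over 1.5-fold higher then became 17.0% and the share lower 7.8%, in place of 8.93% and 12.5%. The count of members past 1.5-fold was still 0 in both directions, but the intervals moved with the ratios. Of the 8 members with a ratio, 2 then had intervals above 1, Ly75 (1.205, 1.05 to 1.39) and Psmb11 (1.37, 1.11 to 1.69). Whether these genes stood at or above their WT level thus depended on the scaling. The interval limits and list counts under this scaling were added after the values were seen. Relative to all measured genes, the members' median stood 0.137 higher on the log2 scale. This difference is the same under either scaling by construction, because a scaling moves every gene alike.

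Psmb11 encodes β5t, the catalytic proteasome subunit found only in cortical thymic epithelium, where it shapes the peptides for CD8 T cell selection. It lies on chromosome 14 (chr14:54625310-54629556, plus strand, GRCm38). Its level was 2.69 RPKM in WT (166 fragments) and 3.21 RPKM in Tg (210 fragments). The ratio was 1.19 (95% interval 0.969 to 1.47), and with scaling by the fragments summed over genes it was 1.37 (1.11 to 1.69). The interval included 1 under the deposited scaling and not under the other. Psmb11 stood above 59.8% of all genes in WT and 61.6% in Tg.

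The other β5 subunits place this level on a scale. Psmb5, the constitutive β5 subunit, stood at 70.1 RPKM in WT and 96.8 RPKM in Tg, and Psmb8, the β5i subunit of the immunoproteasome, at 237 and 236 RPKM. Per length, Psmb5 was 26.1 times the level of Psmb11 in WT (95% interval 22.1 to 30.9) and 30.1 times in Tg (26.03 to 35.04). Psmb8 was 87.9 times its level in WT (75.3 to 103) and 73.4 times in Tg (63.9 to 84.8). β5t transcripts were therefore a small share of β5 transcripts in both thymus libraries. The ratio of Psmb5 between libraries was 1.38 (1.27 to 1.51) and that of Psmb8 was 0.996 (0.955 to 1.04). The interval of Psmb11 overlapped both.

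Prss16 encodes the thymus-specific serine protease of cortical epithelium, which contributes to the peptides presented on MHC class II during CD4 T cell selection. It lies at chr13:22002176-22009741 (minus strand). The gene had 47 fragments in each library, at 1.504 RPKM in WT and 1.418 RPKM in Tg. The ratio was 0.943 (0.616 to 1.44). It was the only measured member below 1, and it stood at 1.08, above 1, with scaling by the fragments summed over genes. Prss16 was also the member with the 7-base seed match shown above, and a link between the match and this ratio was not tested.

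Ly75 encodes DEC-205, an endocytic receptor of cortical epithelium that dendritic cells carry too. It was the member with the highest level, at 5.18 RPKM in WT (389 fragments) and 5.45 RPKM in Tg (434 fragments), from chr2:60292103-60383273 (minus strand). The ratio was 1.05 (0.916 to 1.21), the narrowest interval of the 8 members with a ratio, and 1.205 (1.05 to 1.39) with scaling by the fragments summed over genes. Because dendritic cells share this gene, their markers were read beside it. Of 10 dendritic cell markers 7 were measured, of which 0 were over 1.5-fold higher and 2 lower (Itgax at 1.078 and 0.5002 RPKM, and Cd209a with 13 and 7 fragments). The other 5 lay within 1.5-fold. Of these Xcr1 was above 1, with 135 and 177 fragments (ratio 1.24, 0.983 to 1.56). Irf8 (0.791), Siglech (0.784), Flt3 (0.809) and Sirpa (0.943) were below 1. The RPKM of all 10 markers summed to 12.7 in WT and 10.5 in Tg. The median log2(Tg/WT) of the 7 measured was -0.339. The part of dendritic cells in the Ly75 value was not tested.

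Dll4, the Notch ligand of thymic epithelium that drives T lineage commitment, was close to the limit of these libraries. It had 3 fragments in WT and 1 in Tg (chr2:119325784-119335666, plus strand), which is 0.0599 and 0.0188 RPKM. Both libraries were at or under 3 fragments, so no fold is given. A difference in Dll4 was not detectable at this depth.

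The rest of the Notch pathway was measured far more deeply, since thymocytes express its receptors and targets. Of 13 listed genes, Dll4 included, 11 were measured. In Tg 2 of them were over 1.5-fold higher and 2 lower, and 7 stayed inside that range. With scaling by the fragments summed over genes 5 were higher (Notch1, Dll3 and Notch4 were added) and 1 lower (Jag1). Their median log2(Tg/WT) was 0.312. The higher genes were Notch3 (4.76 and 7.57 RPKM, ratio 1.59, 1.43 to 1.77) and Ptcra (10.7 and 17.3 RPKM, ratio 1.62, 1.36 to 1.94), which encodes the pre-TCR α chain. Notch1, the receptor that Dll4 engages in the thymus, stood at 14.5 and 21.0 RPKM (1.45, 1.37 to 1.53). The lower genes were Dtx1, a Notch target, at 4.91 and 3.16 RPKM (0.644, 0.530 to 0.781), and the ligand Jag1. Among the ligands, Jag1 had 37 fragments in WT and 12 in Tg (0.306, 0.145 to 0.600), Jag2 had 95 and 125 fragments, Dll3 24 and 36, and Dll1 1 in each library. Per length, Dll4 and Dll1 were thus the lowest of the 5 Notch ligands listed, and Jag2 the highest at 1.614 and 2.003 RPKM.

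Foxn1, the master transcription factor of thymic epithelium, was at the edge of detection. It lies at chr11:78357577-78386783 (minus strand) and was listed as 2 transcripts. The transcript used (NM_001277290) had 2 fragments in WT and 4 in Tg, at 0.0422 and 0.0797 RPKM, a ratio of 1.89 with an interval from 0.270 to 20.9. The other transcript (NM_008238) had 1 fragment in WT and 0 in Tg. Summed over both, the gene had 3 and 4 fragments and a ratio of 1.26 (0.213 to 8.59). These counts do not separate the libraries. Psmb11, which is known to depend on Foxn1, gave 166 and 210 fragments in the same libraries.

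Aire, the medullary regulator of tissue-restricted antigens, was spread over 13 listed transcripts (chr10:78030022-78043610, minus strand). In WT, 3 transcripts had 1 fragment each, and in Tg 1 transcript had 1 fragment and another had 2. The remaining 8 had no fragments in either library. The sum was 3 fragments in each library (0.118 and 0.0974 RPKM), so no fold is given. The transcript with the highest mean (NR_073358) had 0 fragments in WT, which allows up to 0.102 RPKM, and 2 in Tg. Neither the level nor the choice of isoform of Aire was readable at this depth.

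**Figure D2:**
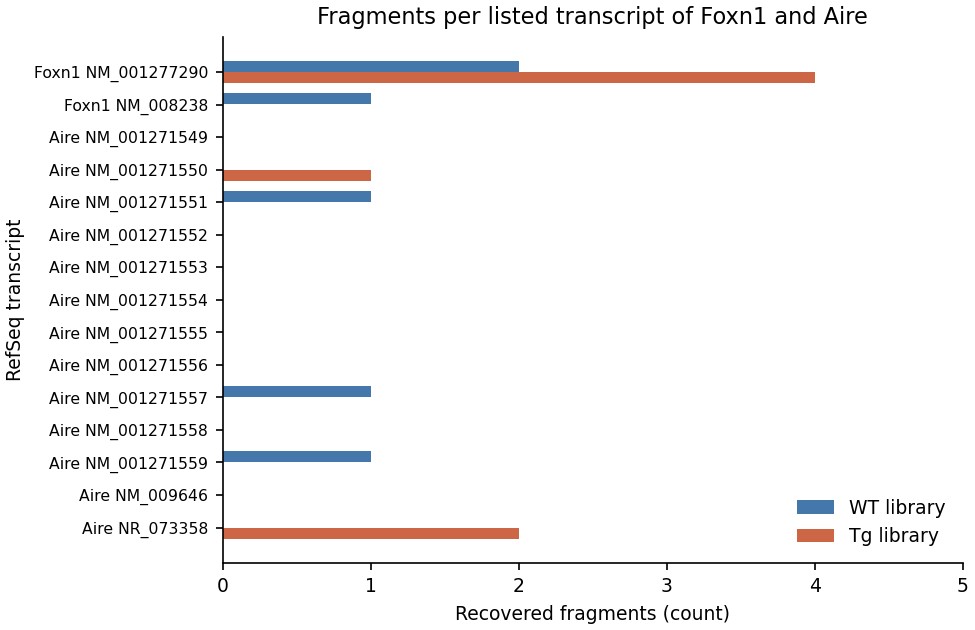
Recovered fragments of each listed transcript of Foxn1 (2 transcripts) and Aire (13 transcripts), with WT and Tg as separate bars. No transcript exceeds 4 fragments, and 8 Aire transcripts have none in either library.

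How the counting treated isoforms bears on both genes. Among 124 genes whose 2 transcripts differed by 6 bases or fewer in length and had at least 20 WT fragments, 4 had equal counts. Equality cannot decide whether shared fragments were counted once for each transcript, because fragments over differing bases match 1 transcript only. In 102 of these 124 genes (82.3%) the counting interval of a transcript's share of the WT fragments included an even split. For most of these genes the WT counts were thus not told apart from an even division of fragments, which counting each fragment for both transcripts would also give. The rule by which fragments were assigned to isoforms is not known from these values, and it was not tested for Aire or Foxn1. Where a fragment was counted for each transcript, a sum over transcripts counts it more than once. Where fragments were divided, the highest transcript understates a gene with many. Both cases can touch Aire and Foxn1, while the other 8 members had 1 transcript each.

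Tissue-restricted genes that depend on Aire gave no better reading. Of 10 such genes listed, 1 was measured, Tff3, which encodes trefoil factor 3, with 14 fragments in each library (ratio 0.943, 0.417 to 2.13). No fragments of Ins2, Mup1, Pcp4 and Mucl2 were found in either library, and the others had from 1 to 14 fragments in all.

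Krt8 and Krt18 encode a keratin pair that forms the filaments of cortical epithelium and of simple epithelia elsewhere. They are neighbours on chromosome 15, with 23874 bases between the end of Krt8 (chr15:101996711-102004342, minus strand) and the start of Krt18 (chr15:102028216-102032026, plus strand). Krt18 had 12 fragments in WT and 15 in Tg, at 0.590 and 0.696 RPKM, and a ratio of 1.179 (0.515 to 2.76). Krt8 had 10 and 8 fragments, at 0.381 and 0.288 RPKM, and a ratio of 0.755 (0.259 to 2.12). The partners thus leaned to opposite sides of 1 within wide intervals that overlap over most of their length. Per length, Krt18 was 1.55 times Krt8 in WT (0.613 to 3.998) and 2.42 times in Tg (0.962 to 6.58), so their levels were not told apart in either library.

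Krt5, a keratin of medullary and other stratified epithelium, lies on the same chromosome (chr15:101707069-101712905, minus strand). It had 5 fragments in WT and 9 in Tg, at 0.157 and 0.267 RPKM. The ratio was 1.70 with an interval from 0.511 to 6.45, the largest ratio of any member apart from Foxn1, on a count below the floor of 20 fragments. Its partner Krt14 had 3 fragments in WT and 1 in Tg. Keratins form a large family, and whether reads shared with a similar copy were lost to unique mapping was not tested.

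Epcam, an adhesion molecule on the surface of both cortical and medullary epithelium, lies on chromosome 17 (chr17:87635979-87651127, plus strand). It had 70 fragments in WT and 83 in Tg, at 2.34 and 2.62 RPKM. The ratio was 1.12 (0.804 to 1.56). As a gene of all thymic epithelium, Epcam was within counting error of Psmb11 in level in both libraries.

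**Figure D3:**
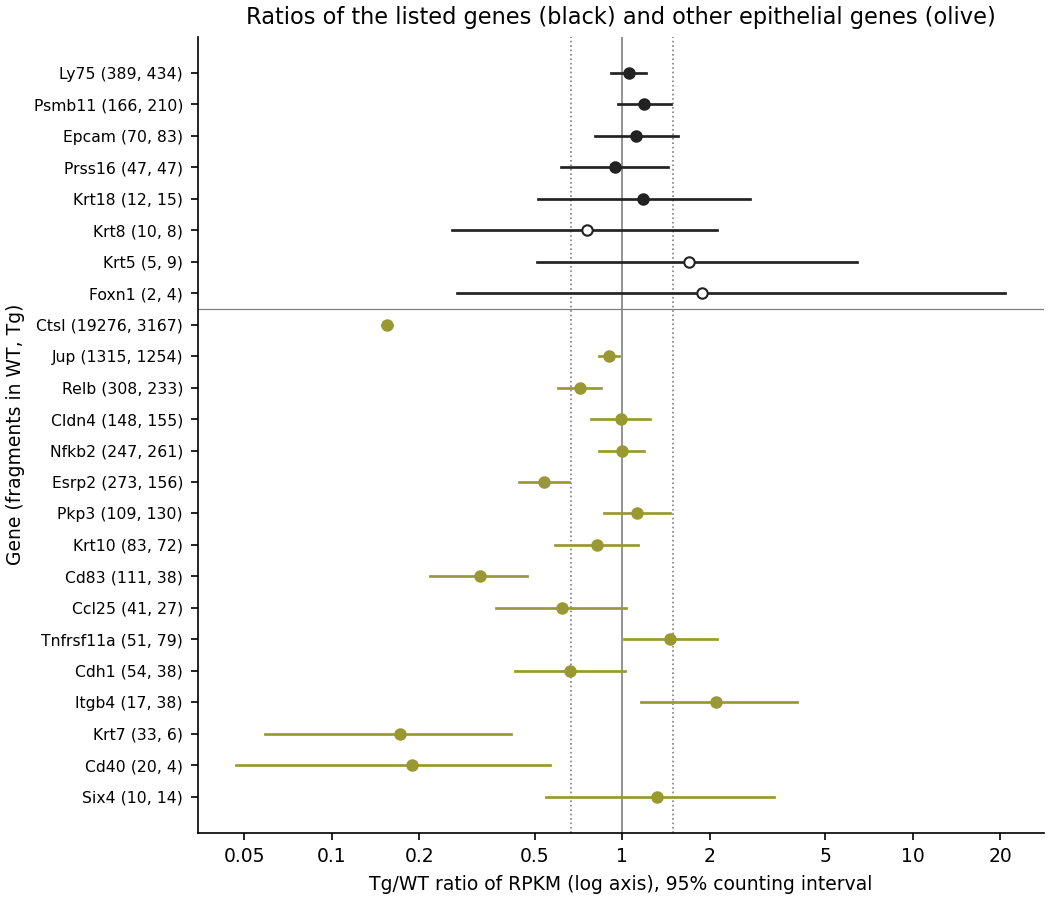
Tg/WT ratio of RPKM (log axis) with 95% counting intervals for the 8 members with a ratio (black, open circles for those under 20 fragments) and for 16 other measured genes of epithelium (olive), with WT and Tg fragments in brackets. Under the deposited scaling plotted here all 8 black intervals include 1, while Ctsl (0.155), Krt7 (0.172), Cd40 (0.189) and Cd83 (0.323) lie to the left of the dotted line at 1.5-fold lower.

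The order of levels was the same in both libraries for the 5 measured genes. Ly75 was 1.92 times Psmb11 in WT (1.60 to 2.32) and 1.70 times in Tg (1.44 to 2.01). Psmb11 and Epcam did not differ beyond counting error, with Psmb11 at 1.15 times (0.865 to 1.54) and 1.23 times (0.948 to 1.60) the level of Epcam. Epcam was 1.56 times Prss16 in WT (1.06 to 2.30) and 1.84 times in Tg (1.27 to 2.70), and Prss16 was 2.55 times Krt18 in WT (1.33 to 5.28) and 2.04 times in Tg (1.12 to 3.93). Below Krt18, none of the neighbouring pairs compared down to Foxn1 was told apart by its fragments in either library. Aire in WT and Dll4 were not placed in this order. Krt8 was 2.43 times Krt5 in WT (0.756 to 9.05, on 10 and 5 fragments). In Tg it was 1.08 times Krt5 (0.362 to 3.15, on 8 and 9 fragments), and both intervals included 1.

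Under the deposited scaling, all 8 intervals of the members with a ratio included 1, and under scaling by the fragments summed over genes 6 did. Under the deposited scaling any ratio between 0.969 and 1.21 lay inside every one of them, so these counts do not tell one member's ratio from another's. The intervals of Ly75 and Psmb11 lay wholly within 1.5-fold under the deposited scaling, and that of Ly75 alone under the other. For the other 3 measured genes the interval reached past 1.5-fold on at least one side, and a difference of that size would not have been seen as such.

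**Figure D4:**
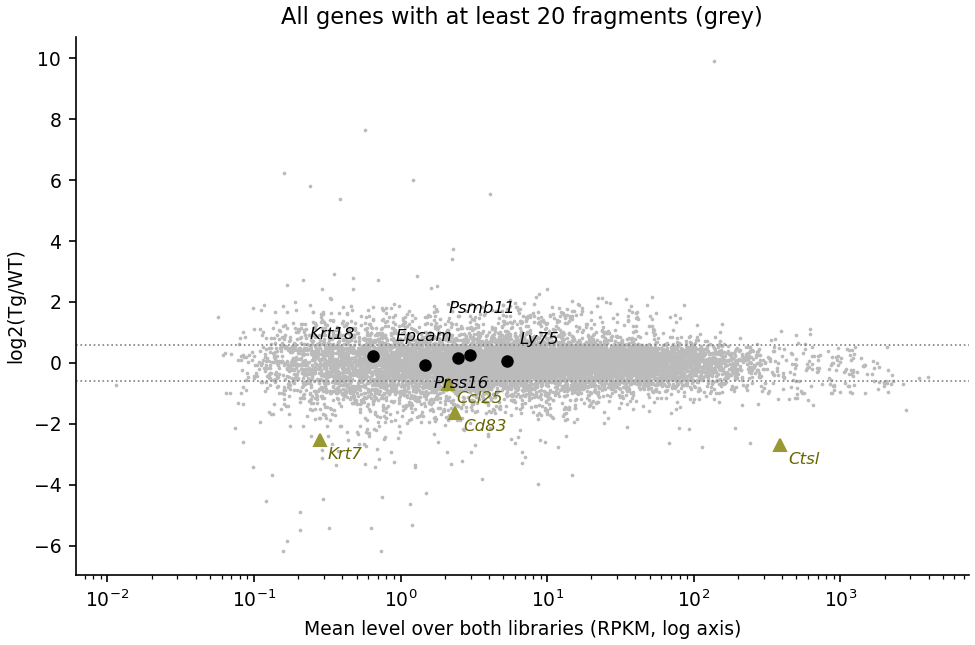
Log2(Tg/WT) against mean RPKM (log axis) for the 12930 measured genes (grey), the 5 measured members (black) and 4 other genes of epithelium (olive triangles), with dotted lines at 1.5-fold. The members lie between -0.08 and 0.25 on the log2 scale, and Ctsl, Cd83, Krt7 and Ccl25 lie below the lower line. These 4 were picked from the genes over 1.5-fold lower. Of 17 measured genes in the lists of other epithelial genes, 7 were lower, 1 was higher and 9 were neither.

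Other genes of thymic epithelium were read beside the members. Of 10 further cortical genes 3 were measured, and 3 of 3 were over 1.5-fold lower in Tg (2 of 3, without Ccl25, with scaling by the fragments summed over genes). Ctsl, which encodes cathepsin L, a protease of cortical epithelium and of many other cells, stood at 673 RPKM in WT and 104 in Tg (ratio 0.155, 0.149 to 0.161). Ccl25, a chemokine that attracts thymocyte progenitors, had 41 and 27 fragments (0.621, 0.367 to 1.03), and Cd83, a surface protein of cortical epithelium, dendritic cells and B cells, had 111 and 38 (0.323, 0.217 to 0.471). Another 7 cortical genes had under 20 fragments. Tbata had the most of these, with 7 and 12 (1.62, 0.587 to 4.85). Cxcl12, Il7, Kitl, Scx and Gper1 also had ratios above 1, and Enpep was below (0.629). All of these intervals included 1. Ctsl was 250 times the level of Psmb11 in WT (215 to 293) and 32.5 times in Tg (28.3 to 37.6). The interval of Psmb11 (0.969 to 1.47) did not overlap those of Ctsl and Cd83, and it overlapped that of Ccl25.

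Among 12 further medullary genes 3 were measured and 1 was over 1.5-fold lower. It was Cd40, which epithelium shares with B cells and dendritic cells, with 20 fragments in WT and 4 in Tg (0.189, 0.0469 to 0.563). Cldn4, a tight junction protein listed both here and among genes of epithelia in general, stood at 5.63 and 5.56 RPKM (0.988, 0.7835 to 1.246). Which cells gave the Cldn4 fragments was not tested. Tnfrsf11a, which encodes RANK, the receptor that drives medullary growth, stood at 0.699 and 1.02 RPKM (1.46, 1.02 to 2.12). Cldn3 and Trpm5 had no fragments in either library. Of 11 further transcription factors 4 were measured, and 4 of 4 lay within 1.5-fold under the deposited scaling. Relb stood at 9.64 and 6.88 RPKM, Nfkb2 at 5.57 and 5.55, and Six4 had 10 and 14 fragments. Relb and Nfkb2 encode NF-κB subunits that blood cells use as well. Hoxa3, Trp63 and Tbx1 had no fragments in either library.

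Of 13 further keratins 2 were measured. Krt7, a keratin of simple epithelia, had 33 fragments in WT and 6 in Tg (0.172, 0.0587 to 0.415), and Krt10 had 83 and 72 (0.818, 0.588 to 1.14). The interval of Krt7 did not reach that of Krt18 (0.515 to 2.76). Of 15 genes of epithelia in general 6 were measured, 1 over 1.5-fold higher and 2 lower. The higher gene was Itgb4, integrin β4, with 17 and 38 fragments (2.11, 1.16 to 3.98). The lower genes were Esrp2, an epithelial splicing factor, with 273 and 156 fragments (0.539, 0.440 to 0.659), and Cdh1, E-cadherin, with 54 and 38 (0.664, 0.426 to 1.02). Jup stood at 18.1 and 16.3 RPKM. Over the 5 lists, 17 of 58 genes were measured, of which 1 was higher, 7 were lower and 9 were neither. Their median log2(Tg/WT) was -0.289. With scaling by the fragments summed over genes 3 were higher (Tnfrsf11a and Six4 were added) and 5 lower (without Ccl25 and Cdh1). All measured genes had 8.93% higher and 12.5% lower under the deposited scaling, and 17.0% and 7.8% under the other. A count of 0 among 5 measured members is near these shares and is not a result about the members.

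**Figure D5:**
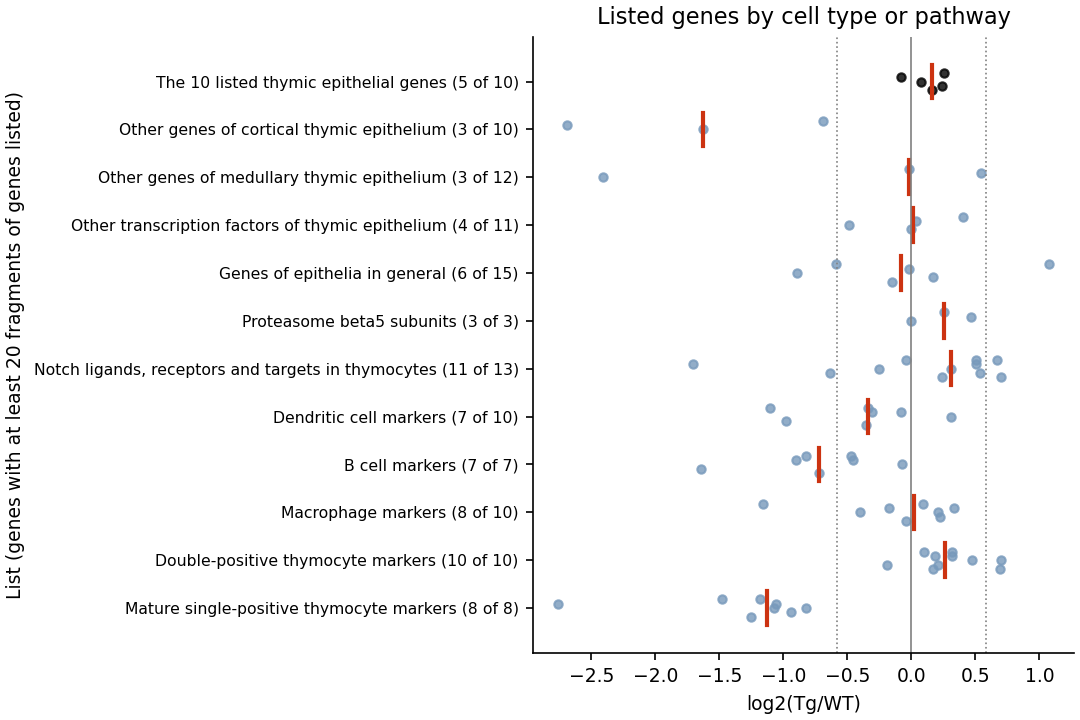
Log2(Tg/WT) of each measured gene (points) and the list median (red bar) for the members and for lists of other epithelial genes, blood cell markers and thymocyte markers, with dotted lines at 1.5-fold and the number measured of the number listed in brackets. The members' median is 0.161, that of the 3 measured other cortical genes is -1.63 and that of the mature single-positive thymocyte markers is -1.13.

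Markers of other cells in the tissue moved between the libraries beside the members. Of 7 B cell markers 7 were measured and 4 were over 1.5-fold lower, with summed levels of 34.95 RPKM in WT and 24.54 in Tg. Of 10 macrophage markers 8 were measured and 1 was lower (Adgre1, ratio 0.447), with sums of 20.2 and 19.2 RPKM. All 8 markers of mature single-positive thymocytes were over 1.5-fold lower, with sums of 981 and 387 RPKM. Of 10 double-positive thymocyte markers 10 were measured, 2 were higher and 0 lower, with sums of 2735 and 3226 RPKM. With scaling by the fragments summed over genes the B cell count became 3 lower and the double-positive count 3 higher. The part of these cells in the members' ratios and in those of Cd40 and Cd83 was not tested. Rag1, which double-positive thymocytes use to rearrange their receptor genes, stood at 413 and 514 RPKM, which is 153 times Psmb11 in WT (132 to 180) and 160 times in Tg (140 to 184).

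Stromal cells other than epithelium were read even less well. Of 8 fibroblast markers 2 were measured and 1 was lower (Col1a2, 91 and 9 fragments, ratio 0.0933), with sums of 1.81 and 0.681 RPKM. The other, Pdgfrb, had 14 and 20 fragments (ratio 1.35, 0.647 to 2.88). With scaling by the fragments summed over genes, Pdgfrb was over 1.5-fold higher and Col1a2 was still lower. Of 8 endothelial markers 1 was measured, Pecam1, at 16.4 and 17.0 RPKM, a gene that leukocytes share. Cdh5, which endothelium does not share with leukocytes, had 12 fragments in WT and 1 in Tg, and Emcn and Cldn5 had none in either library. Plvap had 3 fragments in WT and 4 in Tg, Kdr 2 and 1, Tek 1 and 0, and Tie1 1 in each. Tissue next to the thymus was checked with 9 markers of parathyroid, fat and muscle, of which 2 were measured. Pth, Ucp1 and Plin1 had no fragments in either library. Of the others under 20 fragments, Fabp4 had 7 in WT and 4 in Tg, Adipoq 3 and 1, Gcm2 0 and 1, and Myh4 2 and 4. Acta1, skeletal muscle actin, stood at 16.6 and 22.4 RPKM, and Ckm, muscle creatine kinase, had 10 and 16 fragments. The part of these cells in the members' values was not tested.

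In 5 of the 10 members, exons of another annotated gene on the opposite strand overlap those of the member by 67 to 249 bases. They are Ly75, Krt5, Krt8, Dll4 and Aire, whose partner is the protein-coding gene Dnmt3l. The sources used here do not give the strand setting of the counting, so fragments in these stretches cannot be assigned to one strand.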

How the data were processed

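The authors ground frozen thymus, extracted RNA with Trizol, selected polyadenylated RNA, sequenced it on a HiSeq instrument, mapped reads with a program spelled HotHap2 to build mm10 and counted uniquely mapped reads. They deposited RPKM per RefSeq transcript, although the methods describe fragments, and the mapper's version is not given in the sources used here. The deposited RPKM gave back whole reads for 30531 of 30533 transcripts (relative tolerance 1e-09). The step was first tested on simulated data made under the same rule of even counts. Symbols came from RefSeq (GRCm38) and GENCODE M21 for 98.9% of transcripts. No count model was run, because 1 library per genotype would compare libraries. Members and lists were chosen with earlier results of these data known. Named genes were all members, the 4 genes of highest mean in a list, and measured epithelial, β5 and Notch genes over 1.5-fold. Others (among them Krt14, Cdh5, Adgre1 and genes without fragments) were named after their values were seen. A gene that the rule selected is not reported here. Cd68 of the macrophage list was not matched. Alternatives, of which the list counts and intervals under a further scaling were added after the values were seen, changed the scaling, the value of a gene, the filter, the pseudocount and the fold. Python 3.11.15, numpy 2.4.6, pandas 2.3.3, scipy 1.17.1 and matplotlib 3.10.9 were used.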

Additional observations from a re-analysis of the deposited data

How the results depend on the processing

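No paired analysis was possible because each genotype had 1 library, and for the same reason no library could be left out. Of 13 alternatives, 11 left the count of members over 1.5-fold higher at 0. With a floor of at least 10 fragments in place of 20, 7 members were measured and 1 (Krt5) was higher, and with no filter 8 were and 2 (Krt5 and Foxn1) were higher, on 14 and 6 fragments. The count of members lower was 0 under all 13. Scaling by the fragments summed over genes moved the members' median log2(Tg/WT) to 0.358, because it raises every gene by 0.196, and it put the intervals of Ly75 and Psmb11 above 1. The other 10 alternatives gave medians from 0.0928 (pseudocount of 1 RPKM) to 0.2 (no filter). Over the alternatives that gave a ratio, Psmb11 ran from 1.14 to 1.37, Ly75 from 1.03 to 1.21, Epcam from 1.08 to 1.28, Krt18 from 1.07 to 1.35 and Krt8 from 0.735 to 0.932. Prss16 crossed 1, from 0.919 to 1.08, and Krt5 (1.09 to 1.95) and Foxn1 (1.04 to 2.16) moved most. Counting depth limits Foxn1, Aire, Dll4 and the keratins, and the spread between animals is unknown for every gene.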

Other observations

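Some stromal genes under the floor of 20 fragments had intervals that did not include 1, and were picked out after their values were seen. Pax1, a transcription factor of the pharyngeal pouch from which the thymus arises, had 4 fragments in WT and 15 in Tg (ratio 3.54, 95% interval 1.13 to 14.6). Krt80 had 8 and 1 (0.118, 0.00266 to 0.879), and the endothelial cadherin Cdh5 had 12 and 1 (0.0786, 0.00184 to 0.531). Col1a1 and Col1a2, whose chains assemble into collagen I, stood on opposite sides of 1, with 3 and 12 fragments for Col1a1 (3.77, 1.02 to 20.8) and 91 and 9 for Col1a2, which is over the floor (0.0933, 0.0413 to 0.185). With many genes looked at and 1 library per genotype, such intervals are descriptions of these libraries.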
